A study of Mus musculus with 4 samples.

Results

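The genes described here are 41 genes for lysosomal enzymes and lysosomal membrane proteins, of 20956 genes with a level on the arrays. They were chosen by name, as a list of hydrolases, their helper proteins, membrane proteins, proton pump subunits and the transcription factors that act on lysosomal genes. A gene was read by the probes whose RefSeq accession maps to it, and its brightest probe over the 4 arrays stands for it. The cells were of 3T3-L1, an established mouse preadipocyte line of clonal origin that can be induced to form fat cells. Total RNA was hybridised to 1-colour Agilent arrays from 4 groups with 1 array each. These were control cells at day 0, cells knocked down for lamp2a at day 0, control cells at day 2 and knockdown cells at day 2. Day 0 is confluence in medium with 10% serum. From day 0 both kinds of cell received 160 nM insulin, 250 nM dexamethasone and 0.5 mM of the phosphodiesterase inhibitor 1-methyl-3-isobutylxanthine, so day 2 differs from day 0 by hormones and by time, and no culture without hormones was measured at day 2. The sources used here do not say how the knockdown was made, whether its cells are 1 clone, or what the control cells received. In such bulk RNA, fewer cells of a type and less RNA per cell cannot be told apart.

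Lysosomes are acidic organelles in which proteins, glycans, lipids and nucleic acids are broken down. A proton pump, the V-ATPase, keeps the lumen acidic, soluble hydrolases cut the cargo, and transporters and channels in the limiting membrane release the products. LAMP2A, the targeted protein, is the splice form of LAMP2 that acts as the receptor of chaperone-mediated autophagy, in which single cytosolic proteins are passed across the lysosomal membrane. Many lysosomal genes carry in their promoters a short palindrome called the CLEAR element, which is bound by TFEB and TFE3, transcription factors that move to the nucleus when lysosomes or nutrients run short. In fat cells and their precursors, lysosomal acid lipase and autophagy take part in the turnover of lipid droplets.

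Sequences that a RefSeq promoter table (GRCm38.p6) gives for the members show this element, with 250 bases before and 50 bases after each annotated start. Of the 41 members, 37 had a promoter there, and Npc1, Galns, Asah1 and Atp6v1h did not match. The core letters TCACGTG, searched on both strands, were in 12 of these 37 genes, or 32.4%. Among all bright genes with a promoter, defined below, 7.06% held them and, among all promoters listed, 3.77% did. The longer form TCACGTGA, which contains the shorter one, was in 5 members, namely Mcoln1, Cln3, Gla, Atp6v0d1 and Atp6v1a, and in 0.974% of all promoters. The full palindrome, TCACGTGA with a G before and a C after, was in Cln3 alone among the members and in 0.326% of all promoters. A match is a description of the letters and does not show binding.

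Stretches of 6 of these promoters follow, 5′ to 3′ along the gene and all upstream of the annotated start, with 1 match per promoter in capitals. The stretches of Cln3, Mcoln1 and Lamp1 each hold a further TCACGTG, on one strand or the other, which is left in lower case. Cln3 and Mcoln1 show the longer forms, and Lamp1, Gaa, Naglu and Arsa the shorter one in genes whose levels are described further on. They lie at chr7:126583321-126583388 on the minus strand, chr8:3500443-3500510 on the plus strand, chr8:13159069-13159135 on the plus strand, chr11:119267792-119267858 on the plus strand, chr11:101069990-101070056 on the plus strand and chr15:89477425-89477471 on the minus strand.
Cln3: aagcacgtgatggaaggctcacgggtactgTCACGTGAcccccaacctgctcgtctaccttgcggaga
Mcoln1: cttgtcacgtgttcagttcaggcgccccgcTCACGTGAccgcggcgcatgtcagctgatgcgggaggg
Lamp1: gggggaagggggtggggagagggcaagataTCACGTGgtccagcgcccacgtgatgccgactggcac
Gaa: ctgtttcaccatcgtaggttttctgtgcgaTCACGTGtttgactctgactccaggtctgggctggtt
Naglu: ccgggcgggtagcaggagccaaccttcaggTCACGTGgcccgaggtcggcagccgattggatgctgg
Arsa: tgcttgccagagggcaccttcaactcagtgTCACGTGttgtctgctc

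A normalised signal is the processed signal of a probe divided by the 75th percentile of its array, and a log2 ratio compares such signals between 2 arrays. All 41 members were well above background on all 4 arrays. All except Tfeb were bright, meaning that their mean level was above the 95th percentile of 1072 olfactory receptor genes, and 11394 genes in all were bright. With 1 array per group, differences have no replicate check and could not be tested, so a gene is called higher or lower at 2-fold, and 1.5-fold is given as a second size. Probes printed 10 times had a median SD between spots, as a log2 ratio, of 0.0355 to 0.0725 where bright, which covers the error within arrays only. The number of arrays limits the precision of every comparison.

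The control day 0 array was alone on slide 1 and the other 3 arrays shared slide 2, so in the day 0 knockdown comparison, and in the control time course, slide cannot be told apart from group. These 2 comparisons share that array. Its share of spots well above background was 67.4%, against 78.7% to 88.6% on the other arrays. The olfactory receptor genes had a median log2 level of -7.14 on it. That level was -5.38 for knockdown cells at day 0, -5.42 for control cells at day 2 and -5.53 for knockdown cells at day 2. The knockdown day 0 array was the only one that the scanner software did not detrend. The Lamp2 probe annotated to NM_001017959 had normalised signals of 19.8, 4.80, 11.5 and 3.26, given here and throughout in the order control cells at day 0, knockdown cells at day 0, control cells at day 2, knockdown cells at day 2. Knockdown cells were thus 4.13-fold lower at the first day and 3.52-fold lower at the other, and by the NM_010685 probe 1.28-fold and 1.09-fold lower. All 9 fibroblast and preadipocyte markers were well above background on every array. Of 10 markers of macrophages, cells rich in lysosomes, 4 were bright, and their summed normalised signal was 18.3, 31.6, 28.2 and 38.5. Most of that sum came from Itgam, with 14.2, 27.4, 24.0 and 35.2. The leukocyte gene Ptprc read 0.0277, 0.0664, 0.0779 and 0.0664, the macrophage lysozyme gene Lyz2 0.303, 0.0481, 0.0832 and 0.0187, and Tyrobp was well above background on 2 of 4 arrays. Of 7 fat cell markers, 4 were bright, with a summed signal over all of them of 60.4, 44.4, 78.3 and 88.5. Fabp4 (38.5) and Lpl (46.3) made up most of the last of these sums, while 6 of the 7 markers read lower in knockdown cells at day 2, with a median log2 ratio of -1.42. Of these, Plin1, Cebpa, Adipoq and Pparg were 4.16-fold, 3.60-fold, 3.08-fold and 2.68-fold lower. Fabp4 went the other way, with signals of 0.574, 3.07, 6.29 and 38.5. Its knockdown signal exceeded the control signal by 5.34-fold at day 0 and by 6.12-fold at day 2. The part of slide, detrending and these cell type markers in the results was not tested.

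At day 0, before induction, most of the lysosomal genes read lower in knockdown than in control cells, by less than 2-fold. Of 41 members, 33 (80.5%) had a log2 ratio below 0, against 51.7% of bright genes and 36.5% of all genes compared. The members' median was -0.40, while the median was -0.02 over bright genes and 0.12 over all genes compared. No member was 2-fold lower, against 4.15% of all genes and 3.05% of bright genes, and Cln3 was 2-fold higher, against 18.4% and 5.63%. Of the 771 olfactory receptor genes compared, 362 were 2-fold higher, with a median log2 ratio of 0.95, so the share over all genes includes many dim genes. At 1.5-fold, 14 members (34.1%) were lower and 3 higher. That size was passed downward by 9.48% of bright genes and upward by 13%. Setting the housekeeping medians equal between arrays moved the median of bright genes to -0.66 and put 24 members past 2-fold. The control day 0 array gave the highest signal of the 4 arrays for 28 members. The same count was not made over bright genes, so it has no background beside it.

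**Figure D1:**
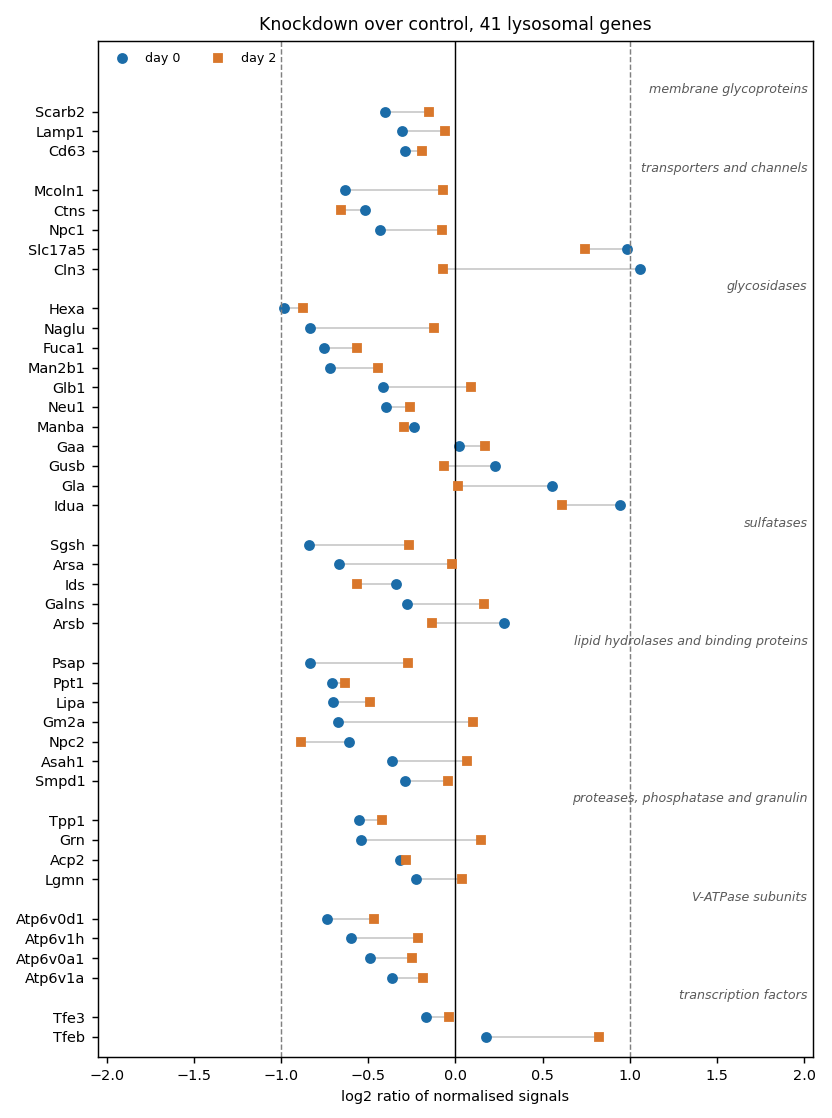
Log2 ratio of normalised signals, knockdown over control, for each of the 41 genes at day 0 (circles) and day 2 (squares), grouped by role, with 1 array per group. Dashed lines mark 2-fold. At day 0 33 genes lie left of 0 and at day 2 30, and Cln3 at day 0 is the only point past a dashed line.

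Lipid-handling proteins were the role group with the lowest median at day 0, -0.67, with 7 of 7 below 0 and 5 lower by 1.5-fold. Psap encodes the precursor of the saposins, which present sphingolipids to their enzymes. Its normalised signals were 28.5, 16.0, 25.2 and 20.9. The control day 0 signal was the highest and the knockdown day 0 signal the lowest, a 1.78-fold difference. Lipa, the acid lipase that frees cholesterol and fatty acids from lipoprotein and droplet lipids, read 5.46, 3.36, 2.95 and 2.10 and was 1.63-fold lower at day 0. Ppt1, which removes palmitate from proteins, read 1.16, 0.713, 0.551 and 0.355 and was 1.63-fold lower. In both genes each knockdown array read below the control array of the same day. Gm2a, the activator protein for the breakdown of GM2 ganglioside, read 1.63, 1.02, 0.665 and 0.713, 1.60-fold lower at day 0. Npc2, the soluble carrier that passes cholesterol to Npc1, read 69.0, 45.2, 86.8 and 47.0 and was 1.53-fold lower. The ceramidase gene Asah1 and the sphingomyelinase gene Smpd1 had smaller ratios, -0.36 and -0.29 on the log2 scale.

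Glycosidases trim sugars from glycoproteins, glycolipids and glycosaminoglycans. At day 0 7 of 11 read lower in knockdown cells, with a median of -0.40. Hexa, the alpha subunit of hexosaminidase, read 35.9, 18.2, 18.2 and 9.91. Both knockdown arrays read below the control array of their day, by 1.97-fold at day 0, just short of the call. Naglu, which degrades heparan sulfate, read 4.71, 2.64, 2.69 and 2.47, with the control day 0 array high and the other 3 close together, and its day 0 difference was 1.79-fold. The fucosidase gene Fuca1 and the alpha-mannosidase gene Man2b1 were 1.69-fold and 1.64-fold lower, the beta-galactosidase gene Glb1 and the sialidase gene Neu1 1.33-fold and 1.32-fold, and the beta-mannosidase gene Manba 1.18-fold. A second Fuca1 probe, well above background on all arrays, went the other way, with a log2 ratio of 0.86. Gaa, the acid glucosidase of glycogen, read 100, 102, 39.9 and 44.9, a 1.02-fold difference at day 0.

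Some glycosidases read higher in knockdown cells at day 0. Gla, alpha-galactosidase A, read 72.8, 106.9, 102 and 103, with the control day 0 array lowest and the others alike, a 1.47-fold difference. Idua, an iduronidase of heparan and dermatan sulfate, read 12.8, 24.7, 20.9 and 32.0 at its brightest probe and was 1.92-fold higher in knockdown cells, but its other probe read 1.81, 0.984, 0.488 and 0.329 and had a log2 ratio of -0.88 where the brightest had 0.94. The direction of Idua therefore rests on the choice of probe. Gusb, beta-glucuronidase, is printed in 10 spots per array, which gave 9.66 ± 0.203 (SD over 10 spots) for control and 11.3 ± 0.349 (SD over 9 spots) for knockdown cells at day 0. That gap exceeds the spot SD, which is an error within arrays.

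Sulfatases remove sulfate from glycosaminoglycans and sulfatides. Sgsh, the heparan N-sulfatase, read 69.0, 38.6, 52.1 and 43.4 with knockdown cells 1.79-fold lower at day 0. Its other probe had nearly the same log2 ratio, -0.89 against -0.84. Arsa, which cuts sulfatide, read 62.5, 39.3, 31.4 and 31.0. The control day 0 array stood above the rest, by 1.59-fold over the knockdown array of that day. Ids and Galns were 1.26-fold and 1.21-fold lower, and Arsb was 1.21-fold higher at its brightest probe, with -0.48 on the log2 scale at the other.

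All 4 subunits of the V-ATPase read lower in knockdown cells at day 0 (median -0.55). Atp6v0d1, of the membrane sector, read 25.2, 15.1, 17.7 and 12.8 and was 1.67-fold lower. Atp6v1h, of the cytosolic sector, was 1.52-fold lower, Atp6v0a1 1.41-fold, and Atp6v1a, the catalytic subunit, 1.29-fold. Among proteases and partners, the peptidase gene Tpp1 and the progranulin gene Grn were each 1.46-fold lower, the acid phosphatase gene Acp2 1.25-fold and the legumain gene Lgmn 1.17-fold.

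The membrane glycoproteins had a median of -0.31 at day 0, and the transporters and channels -0.43, with 2 of the latter reading higher. Lamp1, a main glycoprotein of the limiting membrane, read 179, 145, 138 and 132, with the control day 0 array highest, 1.24-fold above the knockdown array of that day. The tetraspanin gene Cd63 and Scarb2, a membrane protein that also acts as a sorting receptor, were 1.22-fold and 1.32-fold lower. The calcium channel gene Mcoln1 was 1.55-fold, the cystine exporter gene Ctns 1.43-fold and the cholesterol exporter gene Npc1 1.35-fold lower. Cln3, a multi-pass protein mutated in juvenile Batten disease, read 0.523, 1.09, 1.08 and 1.03. The control day 0 array alone was low, which put the knockdown array 2.09-fold above it at day 0. Its second probe had a log2 ratio of 0.65, short of 2-fold, and the brightest probe was also short of it after quantile normalization (0.95), cyclic loess (0.91) and scaling that set the housekeeping medians equal or the housekeeping genes' median deviation between arrays to 0 (0.42 and 0.88). Slc17a5, which exports sialic acid, read 10.6, 21.0, 17.2 and 28.7 at its brightest probe, 1.98-fold higher in knockdown cells, whereas its other probe had a log2 ratio of -0.43. Of the transcription factor genes, Tfe3 read 15.8, 14.0, 13.7 and 13.4, a 1.12-fold difference at day 0. Tfeb read 0.215, 0.242, 0.137 and 0.243 and was 1.13-fold higher that day.

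At day 2, with both arrays on the same slide, the members still read lower in knockdown cells on the whole, by a smaller amount. The median log2 ratio was -0.14, against 0.04 over bright genes and -0.001 over all genes. Below 0 were 30 of 41 members (73.2%), against 44.9% of bright genes and 50.1% of all genes. No member passed 2-fold, where 4% of all genes and 3.62% of bright genes were lower and 2.85% and 3.01% higher. At 1.5-fold 4 members were lower, Npc2, Hexa, Ctns and Ppt1, and 3 higher, Tfeb, Slc17a5 and Idua, against 8.06% and 9.19% of bright genes. The share of members lower by that size, 9.76%, was thus close to the background. Setting the housekeeping medians equal moved the members' median to -0.60 and that of bright genes to -0.43, and put 6 members past 2-fold.

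**Figure D2:**
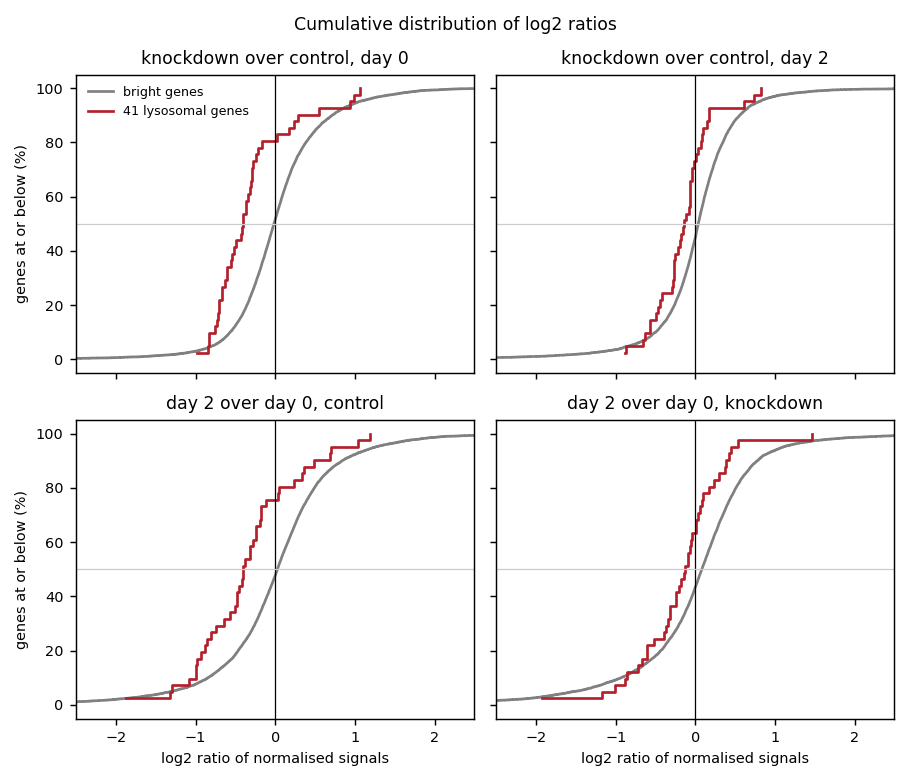
Cumulative share of genes (percent) at or below each log2 ratio of normalised signals, for the 41 lysosomal genes (red) and all bright genes (grey), in 4 comparisons with 1 array per group. The red curve crosses 50% at -0.40 and -0.14 in the knockdown comparisons and at -0.40 and -0.13 in the time courses.

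Npc2 had the largest difference at day 2. The knockdown arrays read 45.2 at day 0 and 47.0 at day 2, and the control arrays 69.0 and 86.8. The day 2 difference was 1.85-fold. Hexa was 1.83-fold lower at day 2, Ctns 1.58-fold and Ppt1 1.55-fold. Hexa, Npc2 and Ppt1 were the members lower by at least 1.5-fold on both days. The share of bright genes lower by that size on both days was not counted. Fuca1 and Ids came next at day 2, each at 1.48-fold. Other genes that were lower by at least 1.5-fold at day 0 had smaller differences at day 2: Naglu was 1.09-fold lower, Arsa 1.01-fold, Sgsh 1.20-fold, Psap 1.21-fold and Mcoln1 1.05-fold.

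Tfeb had the highest knockdown ratio of the members at day 2. It was dim, where the spot SD of the log2 ratio had a median of 0.253, and its control day 2 signal was the lowest of the 4 arrays, 1.77-fold below the knockdown signal. Tfe3 differed by 1.03-fold. All 4 V-ATPase subunits again read lower in knockdown cells (median -0.23), with Atp6v0d1 at 1.38-fold. The membrane glycoproteins Lamp1, Cd63 and Scarb2 were 1.04-fold, 1.14-fold and 1.11-fold lower. Slc17a5 and Idua were 1.67-fold and 1.53-fold higher at their brightest probes, with log2 ratios of 0.11 and -0.57 at the others.

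Between the days, control cells had lower levels of most lysosomal genes at day 2 than at day 0. The median log2 ratio of the members was -0.40, while it was 0.03 over bright genes and 0.19 over all genes. Below 0 were 31 of 41 members (75.6%), against 47.7% of bright genes and 36.4% of all genes. At least 2-fold lower were 4 members, Manba, Gaa, Gm2a and Ppt1, where 8.02% of all genes and 7.67% of bright genes were, and 2 were higher, Man2b1 and Cln3, against 20.1% and 7.68%. Of the 695 olfactory receptor genes compared, 386 were 2-fold higher, with a median of 1.14. At 1.5-fold 13 members (31.7%) were lower and 4 higher, against 16% and 16.3% of bright genes. In knockdown cells, measured within 1 slide, the median was -0.13, against 0.08 over bright genes. In these cells 26 members (63.4%) were below 0, against 43.4% of bright genes and 48.4% of all genes. There Manba, Gaa and Ppt1 were 2-fold lower and Man2b1 higher, against 8.95% and 4.96% of all genes and 9.24% and 6.17% of bright genes. At 1.5-fold 9 (22.0%) were lower and 1 higher, against 16.1% and 16.4% of bright genes. The median turned to 0.10 with the housekeeping medians set equal between arrays, where Gaa (-0.95) and Ppt1 (-0.78) were short of 2-fold, as was Ppt1 with normexp background correction (-0.91).

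**Figure D3:**
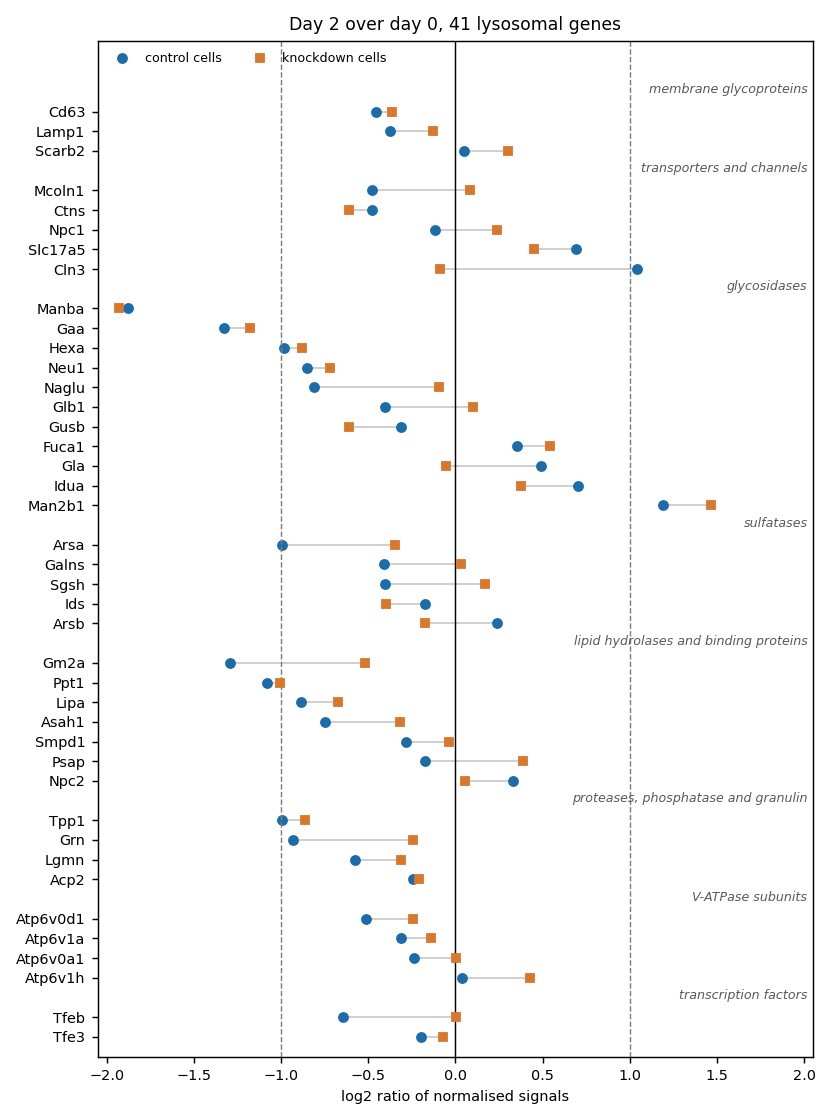
Log2 ratio of normalised signals, day 2 over day 0, for each of the 41 genes in control cells (circles) and knockdown cells (squares), grouped by role, with 1 array per group. Dashed lines mark 2-fold. Manba, Gaa and Ppt1 lie past the left line and Man2b1 past the right line in both kinds of cell.

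The mannosidase genes Manba and Man2b1 passed 2-fold between the days in opposite directions. Manba, which removes the last beta-linked mannose of N-glycans, read 0.747, 0.632, 0.203 and 0.166. Both day 2 arrays were low, by 3.67-fold in control and 3.81-fold in knockdown cells. Man2b1, which removes alpha-linked mannose, read 18.5, 11.2, 42.2 and 31.0. Both day 2 arrays were high, by 2.28-fold and 2.76-fold, and at each day the knockdown array read below the control array. With the median deviation of the housekeeping genes between arrays set to 0, its log2 ratio in control cells was 0.89, short of 2-fold.

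Gaa was 2.51-fold lower at day 2 in control cells and 2.26-fold lower in knockdown cells. Its other probe had log2 ratios of -1.94 and -1.72, larger than the -1.33 and -1.18 of the brightest. Ppt1 was 2.11-fold and 2.01-fold lower. Gm2a was 2.45-fold lower in control and 1.43-fold lower in knockdown cells, where its level had already been low at day 0. Its second probe gave -1.35 and -1.06 on the log2 scale, past 2-fold in both.

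**Figure D4:**
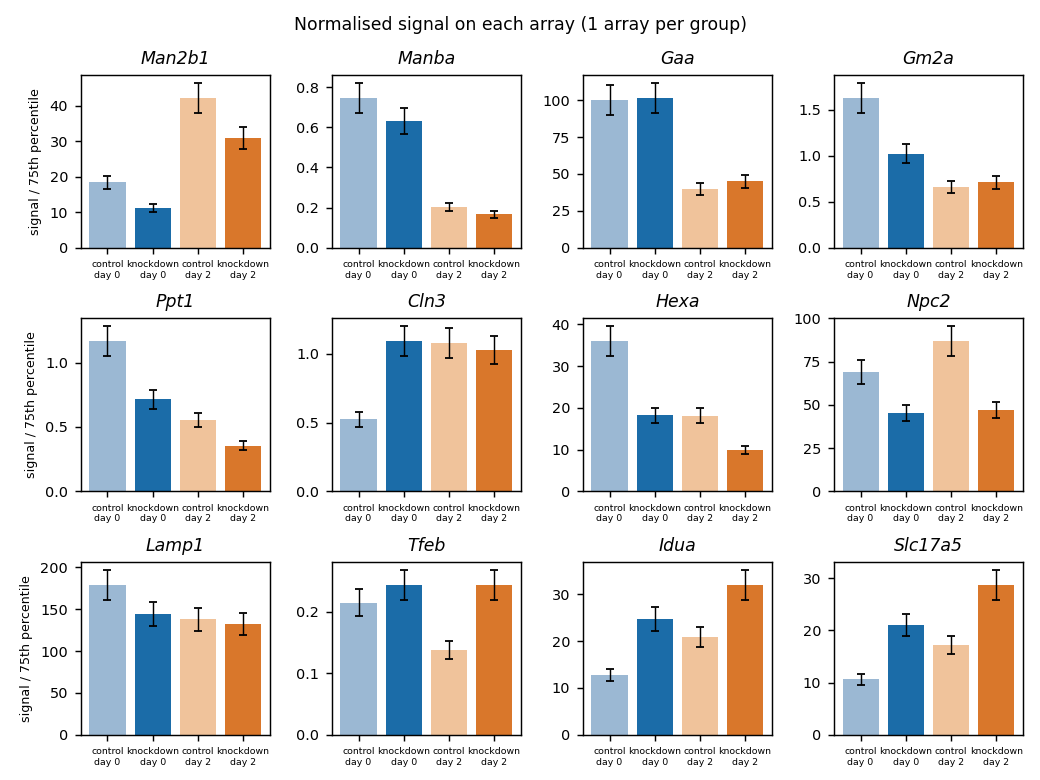
Normalised signal (processed signal divided by the 75th percentile of the array) of 12 genes on the 4 arrays. Bars are single arrays and error bars are the error that the scanner software gives for the spot. Manba and Gaa are low and Man2b1 is high on both day 2 arrays, and Cln3 is low on the control day 0 array alone.

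Other hydrolases were lower at day 2 by smaller amounts in both kinds of cell. Tpp1 was 1.99-fold lower in control and 1.82-fold in knockdown cells, Hexa 1.98-fold and 1.84-fold, Lipa 1.85-fold and 1.60-fold, and Neu1 1.81-fold and 1.64-fold. Together with Manba, Gaa and Ppt1 these were the 7 members lower by at least 1.5-fold in both. In control cells alone that size was passed by Arsa, at 1.99-fold, Grn, at 1.91-fold, Naglu, at 1.75-fold, Asah1, at 1.68-fold, Gm2a and Tfeb, at 1.56-fold, and their ratios in knockdown cells were -0.35, -0.24, -0.10, -0.32, -0.52 and 0.00 on the log2 scale. In knockdown cells alone it was passed by Ctns, at 1.53-fold, and Gusb, at 1.53-fold. The shares of bright genes lower by 1.5-fold in both kinds of cell, or in either kind alone, were not counted.

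Among members under 1.5-fold in both time courses, several read lower at day 2 in control cells and not in knockdown cells. Mcoln1 read 16.6, 10.73, 11.9 and 11.4 and had log2 ratios of -0.48 and 0.08. Glb1 read 4.59, 3.44, 3.47 and 3.69, with -0.40 and 0.10. For both genes the control day 0 array stood above the other 3. Sgsh and Psap had -0.40 and -0.18 in control against 0.17 and 0.39 in knockdown cells. Fuca1 read 10.5, 6.23, 13.4 and 9.07 and was 1.28-fold and 1.46-fold higher at day 2. Past 1.5-fold, Slc17a5 and Idua were 1.62-fold and 1.63-fold higher at day 2 in control cells at their brightest probes, with log2 ratios of -0.36 and -1.89 at the others.

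Membrane proteins and pump subunits differed less between the days. Lamp1 was 1.30-fold lower in control and 1.09-fold lower in knockdown cells, Cd63 1.37-fold and 1.29-fold. Scarb2 was 1.04-fold and 1.23-fold higher. The 4 V-ATPase subunits had medians of -0.28 and -0.07, with none past 1.5-fold in either kind of cell. Cln3 was 2.06-fold higher at day 2 in control cells and 1.06-fold lower in knockdown cells. The former was also short of 2-fold after quantile normalization (0.94), cyclic loess (0.88) and with housekeeping deviations set to 0 (0.74).

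The knockdown log2 ratio at day 2 minus that at day 0 compares the 2 knockdown ratios, and uses all 4 arrays. Cln3 was the only member past 2-fold, at -1.13, where 17% of the 15464 genes compared and 6.73% of bright genes were below and 2.85% and 2.6% above. Of the 301 olfactory receptor genes compared, 224 were below by that size, with a median of -1.39. With the median of all its probes Cln3 was at -0.74, and with equal housekeeping medians at -0.95. Of the members, 31 were above 0 and 10 (24.4%) below, where 42.4% of bright genes and 52.9% of all genes compared were below. The members' median was 0.21 against 0.08 over bright genes. Above 1.5-fold were 5 members, namely Gm2a (0.77), Naglu (0.71), Grn (0.69), Arsa (0.65) and Tfeb (0.65), against 9.52% of bright genes, where 12.9% were below. This difference has no replicate check and rests on the control day 0 array as much as on the others.

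Of the 41 members, 12 were read by more than 1 probe well above background on all arrays. The other probe had the same direction as the brightest in 7 of 12 genes for the knockdown at day 0, 8 at day 2, 9 in the control and 11 in the knockdown time course. At day 0 Arsb, Fuca1, Gaa, Idua and Slc17a5 went both ways. Idua did so in all 4 comparisons, and its gene overlaps Slc26a1 and Dgkq in the gene table. Arsb overlaps Mir5624 there, and Fuca1, Gaa and Slc17a5 overlap no gene. Sgsh, whose probes had the same direction, overlaps Card14 and Slc26a11. Any part of such overlaps in the probe differences was not tested. The probes of a gene read other stretches of its transcripts, and which stretch or splice form each reads was not examined.

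**Figure D5:**
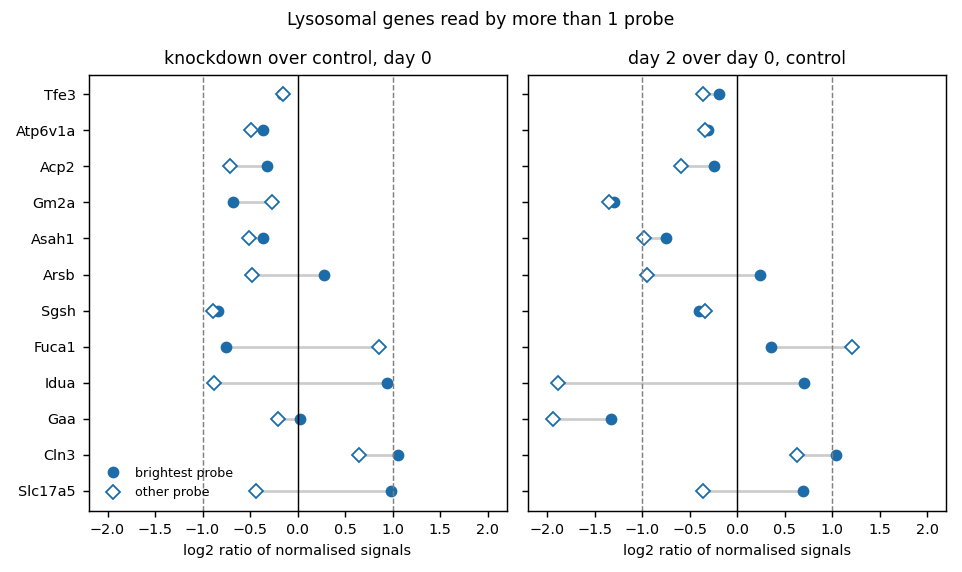
Log2 ratio of normalised signals for the 12 genes read by more than 1 probe, in the day 0 knockdown comparison (left) and the control time course (right), with the brightest probe filled and other probes open. Dashed lines mark 2-fold. The probes of Idua and Slc17a5 lie on opposite sides of 0 in both panels, while those of Sgsh and Tfe3 nearly coincide in the left one.

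Of the members matched to a promoter, those with TCACGTG are set here beside those without. At day 0 the median knockdown log2 ratio was -0.39 over the 12 with the letters and -0.40 over the 25 without, and at day 2 -0.06 and -0.26. Between the days the medians were -0.44 and -0.28 in control cells and -0.11 and -0.21 in knockdown cells. Cln3, with the full palindrome, went against most members at day 0, and Mcoln1 and Gla, which both hold TCACGTGA, had opposite signs, -0.63 and 0.55.

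Further genes of the lysosomal system were compared in lists that do not hold the members. Of 20 other hydrolases and their processing enzymes, the median knockdown ratio was -0.47 at day 0 and -0.16 at day 2. The folate hydrolase gene Ggh was 3.48-fold lower at day 2, and Acp5, a tartrate-resistant acid phosphatase gene, was 3.22-fold higher at day 0. Acp5 read 0.137, 0.442, 0.210 and 0.223, lowest on the control day 0 array, and was 1.06-fold higher at day 2. In control cells 6 of the 20 genes were 2-fold lower at day 2, led by the mannosidase gene Man2b2 (3.22-fold). Gnptab, which makes the mannose 6-phosphate tag of lysosomal enzymes, read 5.55, 3.53, 14.3 and 23.2 and was 2.57-fold higher at day 2 in control and 6.57-fold higher in knockdown cells. Other V-ATPase subunits had a median knockdown ratio of -0.37 at day 0 over 17 genes and -0.09 at day 2 over 16, with none past 2-fold.

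Other membrane proteins had medians of -0.28 and -0.14, and sorting proteins -0.25 and -0.21. Ostm1, the partner of the chloride transporter ClC-7, was 2.15-fold lower at day 0. The calcium channel gene Tpcn2 read 0.101, 0.447, 0.499 and 0.333, with the control day 0 array alone low. This put the knockdown array 4.42-fold above it at day 0. At day 2 the direction of Tpcn2 turned, with a log2 ratio of -0.58. Cathepsins, the lysosomal proteases, had medians of -0.43 at day 0 and -0.10 at day 2 over 11 genes. Among them Ctsk and the dim gene Ctsh were more than 2-fold lower on both days. Ctsw, also dim, read 0.0981, 0.2445, 0.206 and 0.210, lowest on the control day 0 array. Its day 0 ratio was 2.49-fold upward. Of 20 genes around TFEB and mTORC1 compared at day 2, Mitf, a relative of Tfeb, and Fnip2, a partner of folliculin, were 2.04-fold and 2.11-fold higher in knockdown cells and none was 2-fold lower. Mtor was 3.64-fold higher at day 2 in control and 5.46-fold higher in knockdown cells. Housekeeping genes had medians of 0.20 and 0.13 in the knockdown comparisons and 0.29 and 0.19 in the time courses, with Actb at 0.10 and Ppia at 0.21 in the first of these.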

How the data were processed

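Spots were quantified with Feature Extraction 10.7.3.1 of Agilent. Per the file headers, this removed a spatially fitted background, with multiplicative detrending on 3 of the 4 arrays. The deposited intensity values (processed signals) are on a linear scale and not normalised between arrays. The log2 of the processed signal minus that of the array's 75th percentile over non-control spots is the level; the percentile leaves outlier spots out. Control spots and spots marked as non-uniform or population outliers were left out, and repeat spots were averaged. Of 55681 probes, 27627 matched a gene by unversioned RefSeq accession in a table of GRCm38.p6, used for names, overlaps and promoters. No gene coordinates are given because the array's grid refers to another build, mm9. Comparisons took genes well above background on at least 1 of their 2 arrays. Where only 1 array was, the difference is a bound, taken against the dimmest level above background on the other array or the gene's own level if higher, or 0 where its sign would turn. All members were measured on all arrays, and no spot was saturated.

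The members, the gene lists and the size of 2-fold were chosen with earlier results of these data known. All members may be named. In each comparison, up to 3 genes past 2-fold are named of each other list, with Actb and Ppia for housekeeping; Polr2a and Cd68 matched no probe, and some listed genes are not reported here. Scaling between arrays, background correction, detrending, the filter on dim genes, the choice of probe, outlier spots and the call size were varied. Normexp, quantile and cyclic loess (3 iterations) came from limma 3.58.1 in R 4.3.3, and all else from Python 3.11.15 (pandas 2.3.3, numpy 2.4.6, matplotlib 3.10.9). The code that makes the calls was run on simulated data with planted changes and error between spots only. That run checks the code and cannot show how far the differences exceed error between arrays.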

Additional observations from a re-analysis of the deposited data

How the results depend on the processing

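13 other settings were run, 11 of them planned and 2 (bright genes centred, housekeeping deviations centred) chosen after seeing the data. Of 60 medians and 65 counts, 43 medians moved by less than the spot SD and 43 counts stayed within 1.5 times. These include the 2 settings that filter on background, which could not change any member, as all members were well above background on all arrays. No called member changed sign. Of 2460 single ratios, 15 lost and 67 gained the 2-fold call. No paired analysis was possible because each group has 1 array. The cause was not tested for any change below.

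Medians are given for the knockdown at day 0, at day 2, the control and the knockdown time course and the difference between days where they moved. Quantile normalization gave -0.21 in the knockdown time course and 0.14 for the difference, with 2 members called at day 0 (Slc17a5 and Idua, not Cln3) and 2 for the difference. Cyclic loess gave -0.47 at day 0, -0.17 at day 2 and -0.26 in the knockdown time course, with 10 members called in the control time course and 2 for the difference. The 75th percentile over probes above background everywhere gave -0.33 at day 0 with 3 called, and 0.12 for the difference. Centring the bright genes gave -0.34 with 3 called and 0.11.

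Equal housekeeping medians rest on the middle levels of 14 genes. This setting moved the bright genes' median to -0.66 at day 0 and to -0.43 at day 2. It gave members' medians of -1.04 with 24 called, -0.60 with 6 called, 0.10 with 2 called in the knockdown time course and 0.39 with 0 called for the difference. Housekeeping deviations set to 0 gave -0.59 with 4 called, -0.30 with 2 called, -0.70 with 12 called and -0.41 in the knockdown time course. Members called at day 0 numbered 2 with normexp, 3 without detrending and 0 with the median of all probes, which also left 0 for the difference. At 1.5-fold 17, 7, 17, 10 and 6 members were called. Relative to the median of bright genes, the members' median at day 0 lay between -0.42 and -0.36 over all settings, and at day 2 between -0.19 and -0.15. Scaling by the percentile over probes above background everywhere, by housekeeping medians or deviations, or by bright genes adds a constant to each array. Such scaling could not move this difference, which stayed at -0.386 at day 0 and -0.174 at day 2. The call size could not move it either, so for these settings the range is no check.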

Other observations

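The brightest probes of Idua and Slc17a5 had the same profile over the arrays, low in control cells at day 0 and highest in knockdown cells at day 2. After each was centred on its own mean level, 15 of 11393 other bright genes, or 0.132%, lay within 0.1 (log2) of the Idua probe on every array, and Slc17a5 was the only member of the lysosomal list among them. The nearest, in order, were Fgf23, Fbxo31, Snap25, Itgam, Mcidas, Slc35e3, Proser3 and Fam107a. Of these Itgam, an integrin gene of white blood cells, read 14.2, 27.4, 24.0 and 35.2. For the Slc17a5 probe 13 genes lay as near, and the nearest, in order, were E330020D12Rik, Fbxo31, Snap25, Tacr2, Krt222, Idua, Tbc1d1 and Oprm1. These genes were named after their values were seen. In the same way 5 genes lay as near to the Hexa probe and 6 to the Gaa probe.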
